A study of Mus musculus with 6 samples.

Results

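The EGF receptor family is described here across 3 mouse lung adenocarcinoma cell lines with and without restored p53. The set holds 9 genes: the receptors Egfr, Erbb2 and Erbb3, the ligands Areg, Ereg, Hbegf, Tgfa and Btc, and the receptor inhibitor Errfi1. Members were the probe sets whose platform gene symbol is one of these names, and 18 probe sets for 8 of the genes were found among 20380 probe sets that stand for 12393 genes. No probe set carries the name Areg in that annotation, and its expression is not analysed here. The lines KPR4, KPR5 and KPR8 come from adenocarcinomas on a C57/B6-129SvJae strain background. Each was measured on 1 array after 24 h with 4-OH tamoxifen at 250 nM in ethanol and on 1 array with ethanol, so each treatment has 3 arrays. Per the labels, the drug turns p53 expression back on. The alleles of the lines, and the construct through which tamoxifen acts, are not given in the sources used here. The p53 gene itself is not analysed here. Since every culture labelled as p53-restored also received the drug, effects of the 2 cannot be told apart.

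Receptors of this family are tyrosine kinases of the cell surface. A ligand makes them pair, and the pair then signals through adaptors to the RAS, RAF, MEK and ERK kinases and to PI3-kinase. ERBB2 binds no known ligand of its own and acts as a partner, while ERBB3 has a weak kinase and binds neuregulins. The ligands are made as membrane precursors that ADAM proteases cut loose. Amphiregulin and TGF-alpha bind EGFR, and epiregulin, betacellulin and HB-EGF bind both EGFR and ERBB4. In the lung the family drives growth and repair of epithelium, and in adenocarcinoma EGFR is itself a frequent oncogene.

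The labelled cell type was checked on marker genes. All 6 epithelial markers, Epcam, Cdh1, Krt7, Krt8, Krt18 and Krt19, were between 8.89 and 13.50 on the log2 scale. With the drug Epcam fell by 0.37 ± 0.12 and Cdh1 rose by 0.30 ± 0.10 (limma, SE, adjusted p = 0.046 for both), and the 4 keratin genes did not pass. Of 5 lung epithelial markers, 4 were below the expression filter (at least 3 of the 6 arrays at a log2 level of 4 or more), among them Nkx2-1 and the surfactant genes Sftpb and Sftpc, and Aqp5 passed it. None of 4 endothelial markers and 3 of 7 fibroblast markers passed. Of 5 leukocyte markers 2 passed and 3, Ptprc, Itgam and Lyz2, never exceeded 2.84, the highest value of the 27 Bacillus subtilis control probe sets. Cd68, a lysosomal protein of macrophages, was at 3.66, 3.76 and 3.41 with ethanol in KPR4, KPR5 and KPR8 and at 4.83, 4.75 and 4.32 with the drug. It passed the filter only through the 3 treated arrays, so the filter depended on the change and no test is given for it. The other leukocyte marker past the filter, Cd3e, had a change of -0.15 ± 0.16 (limma adjusted p = 0.566). The mean level of the 5 leukocyte markers was 2.77 to 2.85 with ethanol and 2.92 to 3.07 with the drug, a difference carried by Cd68; the part of such cells in the results was not tested. The p53 target Cdkn1a rose in each line, by 5.62, 3.50 and 4.77 in the order KPR4, KPR5, KPR8. RNA integrity was followed by the 3'-to-5' difference of Gapdh control probes, which shifted with the drug by 0.24, 0.29 and -0.40 in KPR4, KPR5 and KPR8. For the beta-actin control probes the shifts were 0.16, 0.39 and -0.07 in that order.

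With the drug, 1 receptor and 3 ligands of the family were higher, and no measured member was lower. Ereg, encoding epiregulin, rose 2.15-fold, Egfr 2.04-fold, Tgfa 1.64-fold and Btc 1.40-fold. Erbb2, Erbb3, Hbegf and Errfi1 did not pass the threshold, an adjusted p of 0.05 in a limma fit of 7644 genes with terms for line and treatment. The count of 4 members higher among 8 tested stands beside a background of 10.5% of all genes tested, and the count of 0 lower beside 8.94%; at an unadjusted p under 0.05 in limma 0 members were lower too. The median change of the 8 members was 0.37 on the log2 scale, against 0.00 for all genes tested. In 3 of the 8, Egfr, Ereg and Tgfa, each treated array lay above each ethanol array, which was so for 7.48% of all genes tested; the reverse held for 0 members and 8.20% of genes. Beside those 3, Btc and Errfi1 were higher in each of the 3 lines, making 5 of 8 members against 26.0% of all genes, and 0 members were lower in each line, against 25.7%. In whole cultures, more cells with a transcript and more of it per cell cannot be told apart. Nothing in the labels says that the arrays of a line came from more than 1 culture per treatment, so the 3 lines are the replicates. The line term decides these calls: a limma fit that ignored it called 0 of the 8 members, and 3 were higher there at an unadjusted p under 0.05. Leaving out KPR4 reduced the members called from 4 to 2, Egfr and Ereg.

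**Figure D1:**
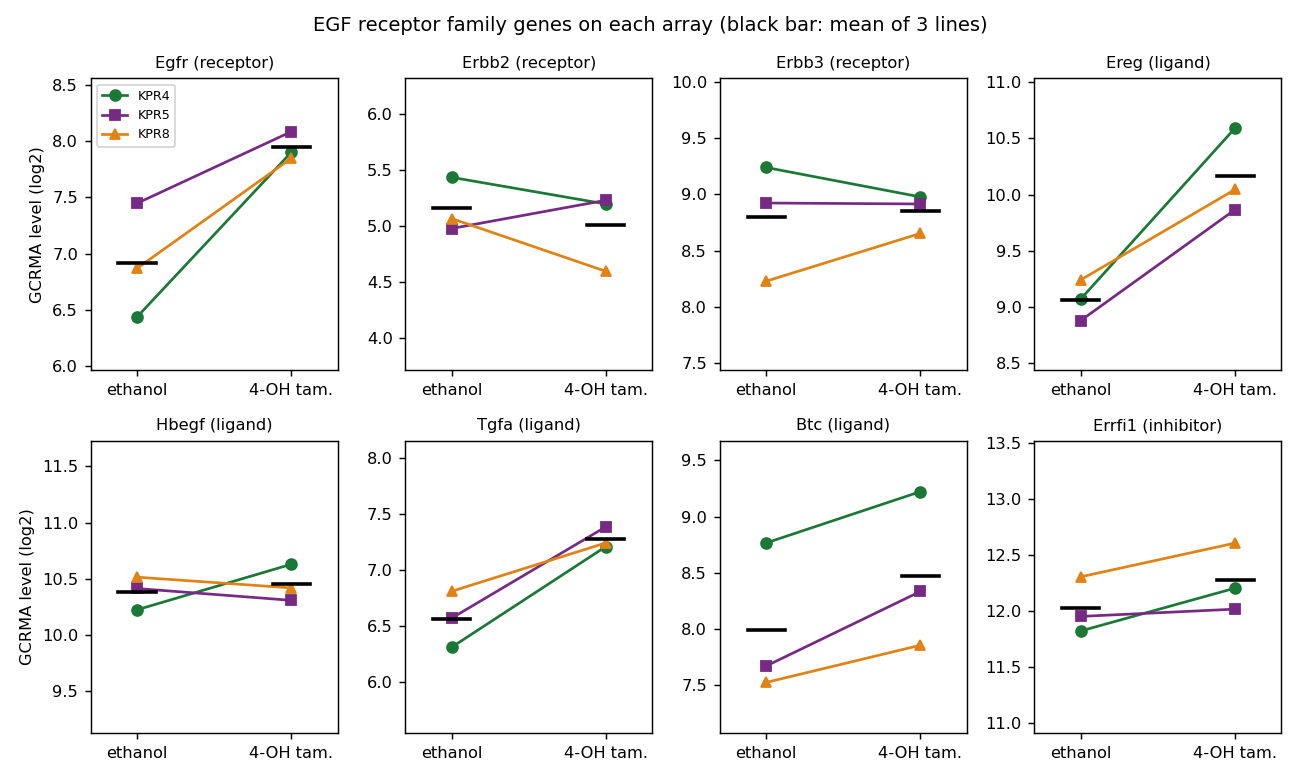
Log2 GCRMA level (y axis, 2.6 log2 units in every panel) of the 8 measured members on each of the 6 arrays, with ethanol and with 4-OH tamoxifen (x axis); lines join the 2 arrays of a cell line and black bars are means of the 3 lines. Egfr, Ereg and Tgfa rise in each line without overlap of the treatments, Btc rises within each line while KPR4 stays above the other lines, and the lines of Erbb2, Erbb3 and Hbegf run in opposite directions.

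The sequence before the start of 3 members that rose is shown with that of Errfi1. Among the members whose windows were searched, Errfi1 had the most matches to the promoter motifs. Each window is the 250 bases before the gene's start in RefSeq, build GRCm38.p6, read 5′ to 3′ on the gene's strand. Windows were searched for Egfr, Erbb2, Areg, Tgfa, Btc and Errfi1, and not for Ereg, Erbb3 or Hbegf. Capitals mark matches on either strand to 5 motifs: the AP-1 site TGANTCA, the cyclic AMP response element TGACGTCA, the p53 response motif, the TATA box TATAAA and the GC box GGGCGG, which reads CCGCCC where the match is on the opposite strand. The Egfr window is at chr11:16751953-16752202 on the plus strand, Tgfa at chr6:86194972-86195221 on the plus strand, Btc at chr5:91402995-91403244 on the minus strand, and the second of 2 listed Errfi1 starts at chr4:150854820-150855069 on the plus strand.
Egfr: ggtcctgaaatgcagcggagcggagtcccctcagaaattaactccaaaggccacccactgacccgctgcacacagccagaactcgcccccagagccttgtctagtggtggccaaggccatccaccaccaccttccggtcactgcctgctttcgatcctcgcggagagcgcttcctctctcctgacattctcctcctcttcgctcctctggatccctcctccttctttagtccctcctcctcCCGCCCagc
Tgfa: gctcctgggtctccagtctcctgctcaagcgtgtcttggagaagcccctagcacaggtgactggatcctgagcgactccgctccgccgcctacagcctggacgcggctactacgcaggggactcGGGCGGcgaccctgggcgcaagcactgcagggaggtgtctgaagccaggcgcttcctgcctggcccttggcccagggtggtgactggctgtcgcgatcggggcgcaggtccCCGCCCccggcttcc
Btc: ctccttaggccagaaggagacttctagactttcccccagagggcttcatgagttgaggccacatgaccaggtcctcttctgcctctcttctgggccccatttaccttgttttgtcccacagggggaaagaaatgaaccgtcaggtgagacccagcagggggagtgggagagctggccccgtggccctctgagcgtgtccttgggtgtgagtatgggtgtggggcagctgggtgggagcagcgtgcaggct
Errfi1: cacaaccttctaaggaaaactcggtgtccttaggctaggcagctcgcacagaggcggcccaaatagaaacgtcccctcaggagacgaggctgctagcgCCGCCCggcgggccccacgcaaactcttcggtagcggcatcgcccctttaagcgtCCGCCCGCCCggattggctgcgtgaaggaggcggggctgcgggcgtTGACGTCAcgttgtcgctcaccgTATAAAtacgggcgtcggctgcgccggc

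The Egfr window held 1 GC box, that of Tgfa 2, and that of Btc none of the 5 motifs. The Errfi1 window held 1 cyclic AMP response element, beginning 51 bases before the start, 1 TATA box beginning 28 bases before it, and 3 GC boxes, of which 2 overlap. The window of the other Errfi1 start held none of the 5 motifs and had a G+C content of 38%. These kinds of match were not particular to Errfi1. The Areg window, not printed, held a cyclic AMP response element, a GC box and a TATA box, beginning 61, 52 and 31 bases before the start. That of Erbb2 held none of the 5 motifs. Errfi1 was picked for its matches, so the shares of all windows do not test them. Among all 32851 promoter windows of this length, 32.7% held a GC box, 12.4% a TATA box, 1.55% the cyclic AMP response element, 6.75% the AP-1 site and 7.13% the p53 response motif. No p53 response motif and no AP-1 site was found in the 4 windows, which says only that these letters are not in them. The G+C content was 60.8% for Egfr, 69.2% for Tgfa, 59.6% for Btc and 64.8% for this Errfi1 window, with a median of 52.4% over all windows. On chromosome 5 the ligand genes Epgn, Ereg, Areg and Btc follow each other in this order, with 0 other protein-coding genes between neighbours in the GRCm38.p6 table. Within this cluster Ereg and Btc rose, and Epgn was below the filter, between 3.13 and 3.90.

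Among the receptors, Egfr, the receptor of all ligands in this set, was the member that rose. Its level with ethanol was 6.43, 7.45 and 6.87 in KPR4, KPR5 and KPR8, and with the drug 7.90, 8.09 and 7.85. All 3 treated arrays were above all 3 ethanol arrays. The mean went from 6.92 ± 0.51 to 7.95 ± 0.12 (SD, n = 3), and the change was 1.03 ± 0.18 (SE, limma adjusted p = 0.0010). The rise was 1.47 in KPR4, where the ethanol level was lowest, 0.98 in KPR8 and 0.64 in KPR5, where it was highest. The lines thus spanned 1.01 with ethanol and 0.24 with the drug. The difference between those spreads was not tested. Each rise was counted from the same ethanol array that gives the level, so the order of the rises is not independent of that of the levels. Without KPR4 the change was 0.81 (adjusted p = 0.0085), and without KPR5 1.22.

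The rise of Egfr was measured by a single probe set. The other 4 Egfr probe sets were below the filter, with levels from 2.51 to 3.77. One of them, at 3.52 to 3.77, was above the highest bacterial control (2.84) on all 6 arrays, and the other 3 were above it on 5, 1 and 0 arrays. Their changes were 0.13 ± 0.12, -0.06 ± 0.12, 0.22 ± 0.11 and 0.07 ± 0.10 in the limma fit of all probe sets without a filter, with adjusted p from 0.296 to 0.851. Averaged over its probe sets, Egfr did not pass the filter and could not be tested.

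Erbb2, the partner receptor, was at 5.43, 4.98 and 5.06 with ethanol in KPR4, KPR5 and KPR8, and at 5.19, 5.23 and 4.59 with the drug. The treatments overlapped, and the value was higher in KPR5 and lower in the other lines. The change was -0.15 ± 0.17 (limma adjusted p = 0.594), with a 95% interval from -0.52 to 0.22. Erbb3, the neuregulin receptor, was at 9.24, 8.92 and 8.23 with ethanol and at 8.98, 8.92 and 8.65 with the drug. Its 3 lines drew closer, from a span of 1.01 to one of 0.32, KPR4 going down and KPR8 going up. The mean change was 0.05 ± 0.16 (adjusted p = 0.860), with a 95% interval from -0.28 to 0.39. These intervals leave room for changes of that size, so the values do not show that Erbb2 and Erbb3 stayed level. A second Erbb3 probe set did not exceed the bacterial controls on any array.

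Of the ligands, Ereg changed most. It was at 9.07, 8.88 and 9.24 with ethanol in KPR4, KPR5 and KPR8 and at 10.59, 9.87 and 10.05 with the drug. The lowest treated array was above the highest ethanol array. The mean went from 9.06 ± 0.18 to 10.17 ± 0.38 (SD, n = 3), a change of 1.11 ± 0.15 (SE, limma adjusted p = 1.3e-04). KPR4 had the largest rise, 1.52, against 0.99 in KPR5 and 0.81 in KPR8. Of the 7644 genes tested, 120 rose by more on the log2 scale, and 147 by more than Egfr. Ereg has 1 probe set in the table, and its change stayed past the threshold without any 1 of the lines, at 0.90 to 1.26.

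Tgfa, encoding TGF-alpha, was at 6.31, 6.57 and 6.81 with ethanol and at 7.21, 7.38 and 7.24 with the drug. The treatments did not overlap, and the treated lines lay within 0.18 of each other after spanning 0.50 with ethanol. The change was 0.71 ± 0.17 (limma adjusted p = 0.0082), made of 0.90 (KPR4), 0.81 (KPR5) and 0.43 (KPR8). Without KPR4 the change was 0.62 and no longer passed (adjusted p = 0.0697). The other 2 Tgfa probe sets were between 2.30 and 2.66, under the highest bacterial control, so this rise too has 1 probe set behind it. Averaged over the 3 probe sets it was 0.23 (adjusted p = 0.184).

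Btc, encoding betacellulin, was at 8.76, 7.67 and 7.52 with ethanol and at 9.22, 8.33 and 7.85 with the drug. The treatments overlapped because the lines differ, but each line went up, KPR5 most at 0.66, then KPR4 at 0.46 and KPR8 at 0.33. The change was 0.48 ± 0.15 (limma adjusted p = 0.037), the call closest to the threshold in the family. It ended when any 1 line was left out, with adjusted p = 0.154 without KPR4, 0.191 without KPR5 and 0.0542 without KPR8, and also without a filter (adjusted p = 0.0648). A second Btc probe set, at 6.37 to 6.83, gave a change of 0.00 ± 0.17 (adjusted p = 0.998 in the fit of every probe set past the filter), so the 2 probe sets disagree.

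Hbegf, encoding HB-EGF, was at 10.22, 10.41 and 10.51 with ethanol and at 10.63, 10.31 and 10.42 with the drug. It was higher in KPR4 and slightly lower in the other lines, and the treatments overlapped. The change was 0.07 ± 0.13 (limma adjusted p = 0.768), with a 95% interval from -0.21 to 0.35, which excludes a rise of the size of that of Ereg. A second probe set gave the same order of the lines, with 0.24, -0.22 and -0.01 in KPR4, KPR5 and KPR8. Errfi1, a feedback inhibitor that binds the receptor kinases and is itself induced by their signal, was at 11.82, 11.95 and 12.31 with ethanol and at 12.20, 12.02 and 12.61 with the drug. Each line was higher, by 0.38, 0.06 and 0.30, but the change of 0.25 ± 0.10 did not pass (adjusted p = 0.085). Its dimmer probe set went from -0.82 in KPR5 to 1.01 in KPR8.

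**Figure D2:**
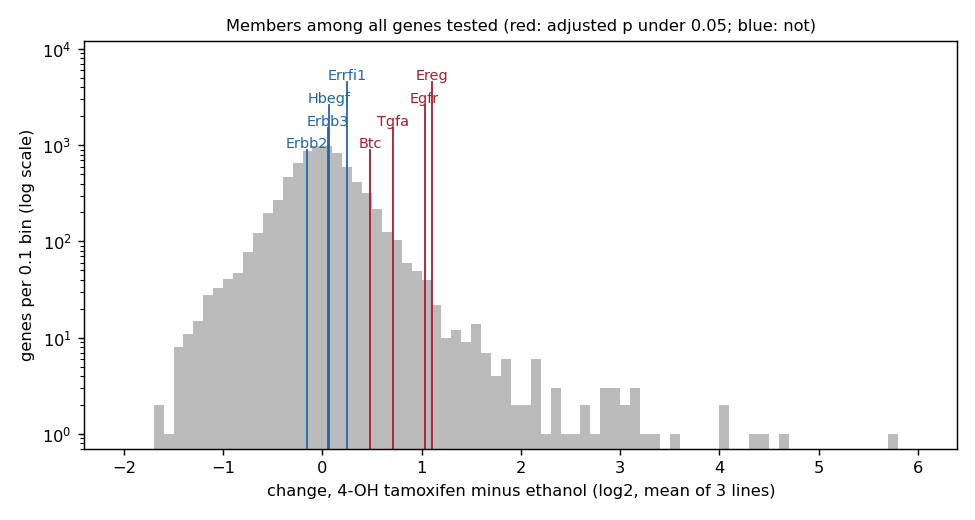
Histogram of the log2 change with 4-OH tamoxifen (x axis, mean of 3 lines) over 7644 genes, with the count per bin of 0.1 on a log y axis; vertical lines mark the 8 measured members, red where the limma adjusted p was under 0.05 and blue where it was not. Ereg at 1.11 and Egfr at 1.03 lie in the upper tail, Tgfa at 0.71 and Btc at 0.48 on its shoulder, and the others between -0.15 and 0.25.

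**Figure D3:**
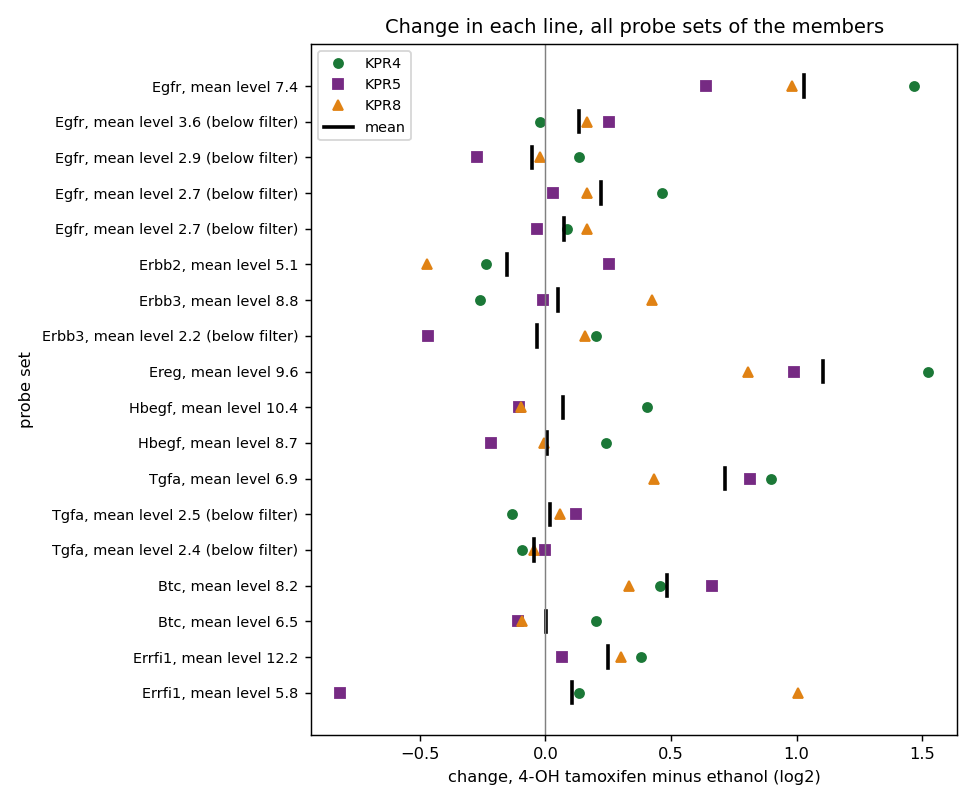
Log2 change with 4-OH tamoxifen in each line (x axis, symbols) and its mean (black bar) for all 18 probe sets of the members (y axis, with the mean level over 6 arrays). The brightest Egfr and Tgfa probe sets stand to the right while the others of the same genes, below the filter, cluster around 0, and the Btc probe sets at mean levels of 8.2 and 6.5 differ.

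The lines also differed from each other in some members when both treatments were fitted together. Whether such a difference held under each treatment was not tested. In limma's F-test of the line term 3 of 8 members passed, Btc, Errfi1 and Erbb3, beside 42.0% of all genes tested. Each line had 1 array per treatment. This test and the contrasts between lines therefore use the 2 treatments of a line as its replicates, and the p-values do not cover spread between cultures of a line. Btc had the widest range: its mean over both treatments was 8.99 in KPR4, the highest line, and 7.69 in KPR8, the lowest, a 2.47-fold span (F-test adjusted p = 1.9e-04). KPR4 was above KPR5 by 0.99 ± 0.19 (adjusted p = 0.0013) and above KPR8 by 1.31 ± 0.19 (adjusted p = 1.4e-04), each adjusted over all genes and the 3 contrasts. The difference of 0.31 ± 0.19 between KPR5 and KPR8 did not pass (adjusted p = 0.235). The second Btc probe set was at 6.63, 6.51 and 6.46 with ethanol in KPR4, KPR5 and KPR8, and at 6.83, 6.40 and 6.37 with the drug. KPR4 was highest there under each treatment too, but the lines lay much closer together than on the brighter probe set.

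Errfi1 was highest in KPR8, at 12.46, against 12.01 in KPR4 and 11.98 in KPR5 (F-test adjusted p = 0.0082). KPR8 exceeded KPR4 by 0.44 and KPR5 by 0.47 (limma contrasts, adjusted p = 0.013 and 0.0093). The contrast between KPR4 and KPR5 did not pass (adjusted p = 0.885). Erbb3 ran from 9.11 in KPR4 over 8.92 in KPR5 to 8.44 in KPR8 (F-test adjusted p = 0.029), and of its 3 contrasts the one between KPR4 and KPR8 passed (0.67 ± 0.19, adjusted p = 0.020). That call ended without a filter (adjusted p = 0.0515) and with averaged probe sets (adjusted p = 0.213), and that of Errfi1 with averaged probe sets (adjusted p = 0.126) and without the variance trend (adjusted p = 0.0794). For Egfr the order was KPR5, KPR8 and KPR4, for Ereg KPR4, KPR8 and KPR5, for Tgfa KPR8, KPR5 and KPR4, for Hbegf KPR8, KPR4 and KPR5, and for Erbb2 KPR4, KPR5 and KPR8, and in none of these 5 did the F-test pass (adjusted p from 0.090 for Egfr to 0.838 for Hbegf). The background for the single contrasts was 27.0% of genes for KPR4 against KPR5, 29.0% for KPR4 against KPR8, and 21.4% for KPR5 against KPR8.

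The genes whose level over the 6 arrays followed each called member most closely were picked by Pearson's r, as a description: the arrays share lines and treatments, so high values are common. For Ereg they were Mmp14, a membrane-bound matrix protease (r = 0.981), Pdlim2 (0.979) and Rps27l (0.978), and 122 of the 7643 other genes reached 0.9. For Egfr they were Ada, adenosine deaminase (0.980), Zfp638 (0.979) and Aen, a p53-induced nuclease (0.978), with 91 genes at 0.9 or more. For Tgfa they were the autophagy gene Atg9b (0.997), the nuclear receptor corepressor gene Nrip1 (0.989) and Serpinb6b (0.989), with 130 genes. For Btc, whose pattern is set by KPR4 as well as by treatment, they were Gclc, the catalytic subunit for glutathione synthesis (0.997), the lipid transporter gene Abca3 (0.995) and Mvp, the major vault protein gene (0.994), with 336 genes. Among the members, r was 0.889 between Egfr and Tgfa, 0.830 between Ereg and Tgfa, 0.716 between Egfr and Ereg, and 0.107 between Egfr and Btc.

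The rest of the pathway was described on 7 lists that hold 77 tested genes. Of these, 8 rose and 0 fell, or 10.4% higher against the 10.5% of all genes, and their median change was 0.15. The 0 lower in limma stand beside the 8.94% of all genes. At an unadjusted p under 0.05 there was 1, the phosphatase gene Dusp9, named after its values were seen, at -0.44 ± 0.16 (adjusted p = 0.074, and 0.049 without the variance trend). The remaining receptor Erbb4 and the ligands Egf, Epgn, Nrg3 and Nrg4 were below the filter, between 2.91 and 4.00 on every array.

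The list of sheddases and their cofactors holds 8 tested genes, the protease inhibitor gene Timp3 among them, and 3 rose. Adam19 rose by 0.76 ± 0.19 (limma adjusted p = 0.012). Adam10, which frees betacellulin and EGF, rose by 0.39 ± 0.11 (adjusted p = 0.027), and Adam9 by 0.32 ± 0.10 (adjusted p = 0.039). Adam17, the main protease for amphiregulin, epiregulin and TGF-alpha, had a value of -0.32 ± 0.15 (adjusted p = 0.162). The list's median was 0.22. Each of the 3 lost its call when 1 line was left out: Adam9 without KPR4, KPR5 or KPR8 (adjusted p = 0.231, 0.0615 and 0.106), Adam10 without KPR4 or KPR8 (0.158 and 0.0932) and Adam19 without KPR5 (0.124). In KPR5 Adam19 went up by 1.41, against 0.49 and 0.39 in KPR4 and KPR8. Another Adam10 probe set gave -0.07, and another of Adam19 0.15. Averaged over its probe sets Adam10 was 0.17 (adjusted p = 0.435). Without the variance trend the adjusted p was 0.0797 for Adam10 and 0.136 for Adam9, and Adam9 also missed the threshold without a filter (0.0592) and after quantile normalizing again (0.0510).

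Among receptor adaptors and proximal enzymes 1 of 14 rose, Gab1, a docking protein that links receptors to PI3-kinase, by 0.74 ± 0.17 (limma adjusted p = 0.0059), with 0.73, 0.88 and 0.61 in KPR4, KPR5 and KPR8. Of 17 genes of endocytosis, turnover and inhibition 0 passed in limma, 2 being higher and 0 lower at an unadjusted p under 0.05, and the furthest from 0 were Hgs and Stam, which sort receptors to the lysosome, at 0.48 ± 0.18 and 0.43 ± 0.16 (adjusted p = 0.0678 and 0.0744). In the limma fit of every probe set past the filter, a second Stam probe set gave 0.91 ± 0.21 (adjusted p = 0.011) and another of Ptpn2, a phosphatase, 0.59 ± 0.16 (adjusted p = 0.021), while the Ptpn2 probe set that stood for the gene gave -0.01. Of 9 tested genes from RAS to ERK 1 rose, Rasa1, a GTPase-activating protein that turns RAS off, by 0.78 ± 0.14 (adjusted p = 0.0012), although another of its probe sets gave -0.04 and the average of its probe sets, 0.29, did not pass (adjusted p = 0.267). The medians of these lists were 0.07, 0.14 and 0.14.

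The largest change of the pathway was that of Dusp1, a phosphatase that inactivates ERK, p38 and JNK, which rose 2.95-fold. It was at 8.33, 9.14 and 9.34 with ethanol in KPR4, KPR5 and KPR8 and at 10.14, 10.68 and 10.65 with the drug, without overlap. The change was 1.56 ± 0.14 (limma adjusted p = 2.6e-06). It was the only 1 of 9 tested feedback inhibitors to pass. Dusp6, an ERK phosphatase, was at 0.35 ± 0.12 (limma adjusted p = 0.053) and Spry2 at 0.15 ± 0.12 (adjusted p = 0.414). Dusp9, of the same list, went the other way, at -0.44 ± 0.16 (adjusted p = 0.074). Of 20 early and delayed genes induced by ERK 2 rose, Jun, an AP-1 subunit, by 0.66 ± 0.18 (adjusted p = 0.017) and Mcl1, a survival protein, by 0.47 ± 0.11 (adjusted p = 0.0072). The rise of Jun was 0.16 in KPR4, 0.93 in KPR5 and 0.89 in KPR8. Its change was 0.52 without KPR5 and 0.55 without KPR8, and neither passed (adjusted p = 0.105 and 0.144). The other Jun probe set gave 0.15, and the average of the probe sets 0.41 (adjusted p = 0.108). Gab1, Rasa1, Dusp1 and Mcl1, 4 of the 8 genes that rose, kept their call without any 1 line, and of these Rasa1 lost it with averaged probe sets. Ccnd1, encoding cyclin D1, was called on a probe set that did not stand for its gene, with 0.65 ± 0.16 (limma fit of every probe set, adjusted p = 0.016), against 0.09 on the one that did. That fit called 11 pathway genes higher in place of 8. Egr1 was at 0.42 ± 0.15 (adjusted p = 0.057), Fos at 0.48 ± 0.19 (adjusted p = 0.094) and Myc at -0.32 ± 0.16 (adjusted p = 0.176). The medians were 0.11 for the feedback inhibitors and 0.24 for the induced genes.

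**Figure D4:**
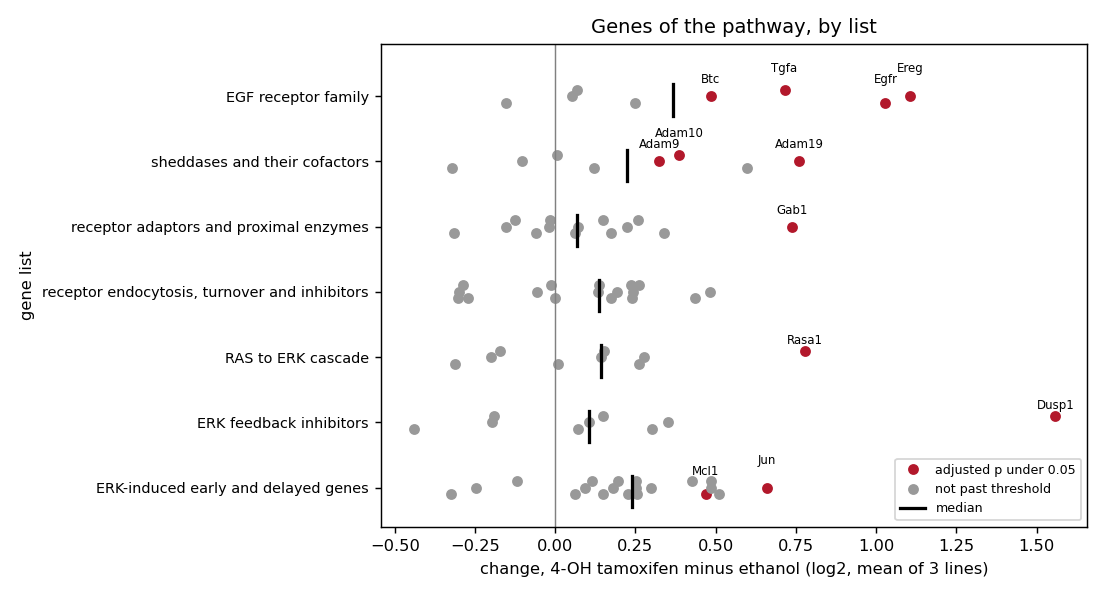
Log2 change with 4-OH tamoxifen (x axis, mean of 3 lines) of each tested gene of the family and of 6 pathway lists (y axis); red points had a limma adjusted p under 0.05, grey points did not, and black bars are list medians. The 12 red points are the 4 family members and the 8 named pathway genes, all to the right of 0, with Dusp1 furthest at 1.56.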

How the data were processed

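Arrays of 3 cell lines under 2 treatments were analysed, 6 in all. The authors deposited log2 expression per probe set, and the submitters' processing notes name GCRMA 2.20.0 and R 2.11.0. GCRMA models background from probe sequence and normalizes between arrays, so a change shared by most genes would be hidden; array medians were 4.56 to 4.63. No scanner files or detection calls were used, so saturation was not examined. Levels of different genes were not compared.

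The 64 control probe sets, 691 with several symbols and 1555 with none were left out. Of the 20380 probe sets left, 20351 have an Entrez identifier in the GRCm38.p6 table. Probe sets at log2 4 or above on at least 3 arrays were kept, and the brightest stood for its gene. limma 3.58.1 in R 4.3.3 fitted line and treatment with a variance trend, with 2-sided p-values adjusted over 7644 genes by Benjamini-Hochberg. Each gene has 2 residual degrees of freedom and moderation added 12.9, so errors and p-values lean on the spread of other genes. Arrays of the same line are paired because the design treats each line both ways; their deviations from group means correlated at 0.876, 0.737 and 0.761 across genes in KPR4, KPR5 and KPR8. The number of arrays limits the precision. The fit was tested on simulated data. Alternatives were the filter, the probe set rule, the variance trend, array scaling, the line term and leaving out each line. Adjusted p-values from fits that leave out different lines are not directly comparable. For Dusp1 limma gave 1.43 ± 0.19 (adjusted p = 2.5e-11) without KPR4. Without KPR8 the change was larger and its error smaller, 1.68 ± 0.14, yet the adjusted p was 0.0014.

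Members and lists were chosen with earlier results of these data known. Named genes are the 9 members, the pathway genes past the threshold (at most 4 per list and direction), the 2 furthest from 0 where none passed, and the 3 genes most like each called member. Cdkn1a and the marker genes were named as checks, and Adam17, Timp3, Ptpn2, Ccnd1, Dusp6, Spry2, Egr1, Fos and Myc after their values were seen.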

Additional observations from a re-analysis of the deposited data

Results flagged for a closer look

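In 3 of 8 members tested the arrays of different lines moved in opposite directions with the drug. Each difference rests on 1 array per line and treatment, so it was not tested. Of all genes tested, 26.0% were higher with the drug in all 3 lines and 25.7% lower in all 3. The rest did not move 1 way in every line, so mixed directions are common and not particular to these members. In the order KPR4, KPR5 and KPR8, the log2 change was -0.24, 0.25 and -0.47 for Erbb2, -0.26, -0.0085 and 0.43 for Erbb3, and 0.41, -0.11 and -0.10 for Hbegf. The standard errors of the mean changes were 0.17, 0.16 and 0.13.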

How the results depend on the processing

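Ereg and Egfr kept direction and call in every alternative tried except the fit without the line term, and Egfr could not be tested with averaged probe sets. Without the replicate block, limma called 22 genes higher and 1 lower against 805 and 683, 0 pathway genes and 0 members, and adjusted p was 0.133 for Ereg (1.11), 0.248 for Egfr (1.03), 0.298 for Tgfa (0.71) and 0.798 for Btc (0.48); that fit counts differences between lines as spread. Btc (0.48) also missed the threshold without a filter, with adjusted p = 0.0648, as did the range of Erbb3 between lines (0.67). With averaged probe sets 1 member was called, Ereg; Tgfa was 0.23 and Btc 0.24, and the line ranges of Erbb3 (0.38) and Errfi1 (0.54) did not pass; these averages include the dim probe sets. Without the variance trend the line range of Errfi1 (0.47) did not pass and 1 pathway gene, Dusp9, was lower; the cause was not tested. With 1 line left out, 525 to 613 genes were higher and 420 to 456 lower, with fewer arrays, and 2 to 3 members were higher. Changes then ran from 0.62 to 0.86 for Tgfa, 0.39 to 0.56 for Btc, -0.10 to 0.16 for Hbegf, -0.35 to 0.0068 for Erbb2 and -0.14 to 0.21 for Erbb3; Hbegf changed sign without KPR4 (-0.10), and Erbb2 (0.0068) and Erbb3 (-0.14) without KPR8. On ethanol arrays alone the range between lines was 1.01 for Egfr, 1.01 for Erbb3, 0.29 for Hbegf and 0.50 for Tgfa, without a test; the count of genes differing could not be had there. Quantile normalizing again and median centring changed no member's direction or call. Among the pathway genes called, averaged probe sets ended the calls of Adam10, Rasa1 and Jun, the fit without the variance trend those of Adam9 and Adam10, and no filter and quantile normalizing again that of Adam9.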
